A study of Sus scrofa with 4 samples.

Results

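A set of 10 genes of endothelial cells was looked for in the longissimus dorsi, the long back muscle, of pigs of 4 breeds, and 9 of them were matched to one of the 18208 entries in the deposited expression table. They were PECAM1, KDR, FLT1, TEK, TIE1, VWF, CLDN5, ESAM and EMCN, of which 7 were matched by the name in the file and 2, TIE1 and ESAM, by their Ensembl ID, with the entry of the highest mean for each symbol. No entry was matched to CDH5, the endothelial cadherin, which was not analysed here. The indigenous type was represented by the Diannan Small Ear pig (DSP) and the Tibetan pig (TP), and the introduced type by Landrace (LL) and Yorkshire (YY), with 1 RNA-seq library per breed and 2 per type. The labels give neither the number of animals behind a library nor their age, sex, treatment or feeding. The spread within a type is therefore the spread between 2 breeds, and within a breed there is none to set beside a difference.

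Endothelial cells line every blood vessel, and in skeletal muscle most of them belong to the capillaries that run along the fibres. VEGF binds the receptors KDR and FLT1 and controls their growth and survival, while angiopoietins act through TEK, with TIE1 as its partner, to keep vessels stable. PECAM1, CLDN5 and ESAM sit in the contacts between the cells, EMCN coats their surface, and VWF is stored in them and released for blood clotting.

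Expression was measured as FPKM, fragments scaled to the length of the gene model and the size of the library, so that levels can be compared between genes. The deposited FPKM of a library summed to between 880279 and 1450764, sequencing depth was not given, and no counting error could be computed. Entries under 300 bp outside the mitochondrial genome took 20.6% of the FPKM in DSP and 17.7% in LL, against 1.39% in TP and 5.55% in YY, so DSP and LL stood apart from TP and YY in this respect. The muscle label was checked on fibre genes, of which 4 of 10 were matched. ACTA1, the skeletal actin, lay between 16778 FPKM in LL and 50812 FPKM in YY, and CKM, the muscle creatine kinase, between 3271 FPKM in LL and 18668 FPKM in YY. MYH7, the slow myosin, whose ID the reference table names MYH6, had a difference of −0.74, indigenous minus introduced, on the log2(FPKM + 1) scale, in which the other differences between types are given too. Each of the 9 endothelial genes was above 2 FPKM in every library and passed the filter of a mean of at least 1 FPKM.

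TP had the highest value for 8 of the 9 endothelial genes and YY the lowest for 7. Among all 11652 genes tested, TP was the highest library for 16.2% and YY the lowest for 26.1%. Summed over the 9 genes, expression was 89.1 FPKM in DSP and 151 FPKM in TP, against 110 FPKM in LL and 55.7 FPKM in YY. The indigenous sum averaged 120 ± 43.8 FPKM and the introduced sum 82.6 ± 38.1 FPKM (SD, n = 2 each), so the breeds of one type differed by more than the types did. Divided by all FPKM of its library, the sum kept the order TP, LL, DSP, YY. In whole muscle, fewer endothelial cells and less RNA per cell cannot be told apart.

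**Figure D1:**
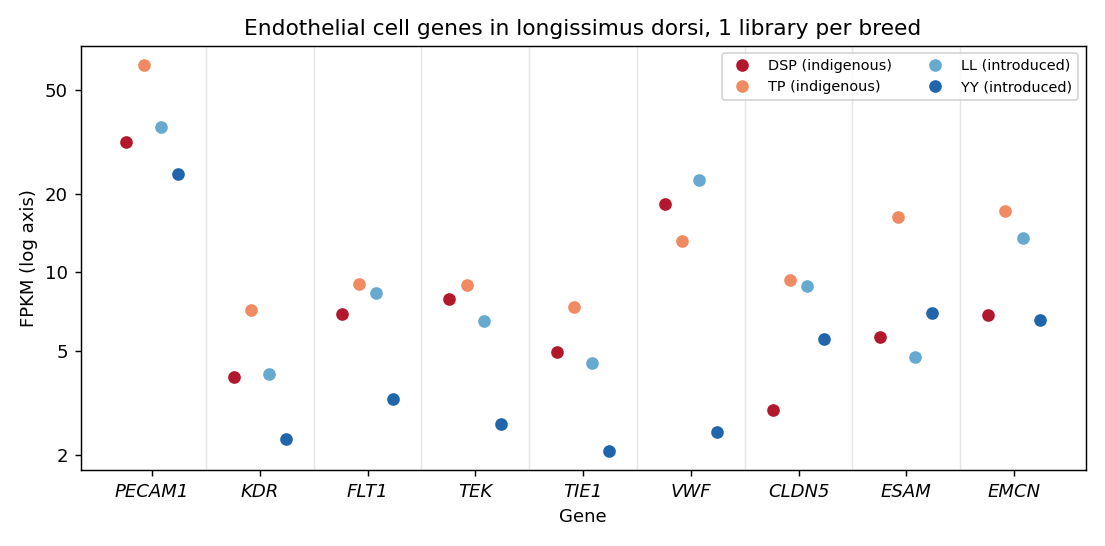
FPKM (log axis) of each of the 9 endothelial cell genes (x axis) in the 4 libraries, 1 point per library, with both indigenous breeds left of both introduced ones. TP is the highest point for every gene except VWF, and YY is the lowest except for CLDN5 and ESAM.

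Among the junction and surface genes, PECAM1 was the most abundant of the set. PECAM1 (ENSSSCG00000017277, chromosome 12, 14660875 to 14717153), an adhesion molecule of endothelial cells that platelets and leukocytes also carry, had 31.6 FPKM in DSP and 62.4 FPKM in TP, against 36.2 FPKM in LL and 23.8 FPKM in YY. TP stood above the other 3 libraries, and the types overlapped because DSP lay under LL. ESAM (ENSSSCG00000015200, chromosome 9, 57498520 to 57507892), a related adhesion molecule of tight junctions, had 5.67 FPKM in DSP and 16.4 FPKM in TP, against 4.74 FPKM in LL and 6.99 FPKM in YY. Here TP was 2.35 times the next library, the largest lead of TP among the 9 genes, and the other 3 libraries lay close together.

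CLDN5 (ENSSSCG00000010123, chromosome 14, 54778678 to 54779334), the claudin that seals endothelial tight junctions, had 2.97 FPKM in DSP and 9.39 FPKM in TP, against 8.87 FPKM in LL and 5.58 FPKM in YY. DSP was the low library, and CLDN5 was the one gene of the 9 with a lower mean in the indigenous type. Its entry spans 657 bp, the shortest of the set. EMCN (ENSSSCG00000009173, chromosome 8, 129169078 to 129176677), a mucin of capillary and venous endothelium, had 6.85 FPKM in DSP and 17.1 FPKM in TP, against 13.5 FPKM in LL and 6.60 FPKM in YY. Both types held one high and one low library for EMCN, so they overlapped. Positions come from the deposited table, with starts shifted to count from 1, and the sources used here give no genome build for them.

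The VEGF receptors shared one order of libraries, TP above LL above DSP above YY. KDR (ENSSSCG00000008844, chromosome 8, 43919343 to 43966974), the main signalling receptor for VEGFA, had 3.98 FPKM in DSP and 7.15 FPKM in TP, against 4.08 FPKM in LL and 2.30 FPKM in YY. DSP and LL were nearly equal, between a high TP and a low YY. FLT1 (ENSSSCG00000009320, chromosome 11, 5316370 to 5455380), which also binds PGF and VEGFB and limits the VEGF that reaches KDR, had 6.92 FPKM in DSP and 9.02 FPKM in TP, against 8.31 FPKM in LL and 3.27 FPKM in YY. FLT1 was set apart by YY alone, since the other 3 libraries lay within a narrow range.

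The level of KDR relative to FLT1, a ratio of FPKM that does not depend on how a library is scaled, was 0.575 in DSP and 0.792 in TP, against 0.491 in LL and 0.702 in YY. FLT1 was thus the more abundant receptor transcript in all 4 libraries, with the ratio higher in TP and YY than in DSP and LL. An unnamed entry, ENSSSCG00000008843, is given the same interval as KDR, with 112 FPKM in DSP and a listed 0 in TP, against 93.4 FPKM in LL and 4.28 FPKM in YY. Whether reads were divided between it and KDR was not tested. TIE1 likewise shares its interval with an entry named CH242-210N13.2, which was at most 0.190 FPKM in any library.

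The TIE receptors were the genes of the set for which the types did not overlap. TEK (ENSSSCG00000005122, chromosome 1, 218224162 to 218500245), the angiopoietin receptor also called TIE2, had 7.90 FPKM in DSP and 8.93 FPKM in TP, against 6.53 FPKM in LL and 2.63 FPKM in YY. TIE1 (ENSSSCG00000003950, chromosome 6, 155288383 to 155321728), an orphan receptor that pairs with TEK, had 4.97 FPKM in DSP and 7.39 FPKM in TP, against 4.51 FPKM in LL and 2.07 FPKM in YY. In both, DSP lay above LL by a small margin and YY was far lower. Such a pattern, with both indigenous libraries above both introduced ones, was found for 2 of the 9 genes and for 9.47% of all genes tested. It was present for both under the median ratio scaling and for neither under the other scalings tried. Those set libraries equal in their sum without the 50 most abundant genes, or in their sum over nuclear entries of at least 300 bp. Of all genes tested, 8.81% had the pattern under the median ratio scaling, 11.19% under the former sum and 6.92% under the latter. Over nuclear entries TEK was 6.87 in DSP and 10.8 in TP, against 8.05 in LL and 2.17 in YY. Its order thus rested on how the libraries were scaled.

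TEK over TIE1 varied less between libraries than KDR over FLT1, at 1.59 in DSP and 1.21 in TP, against 1.45 in LL and 1.27 in YY. The genes that act on TEK were read from the other lists. ANGPT1, the ligand that activates TEK, had 2.58 FPKM in DSP and 2.70 FPKM in TP, against 1.18 FPKM in LL and 0.714 FPKM in YY, and the types did not overlap under any scaling tried. ANGPT2, a ligand that can block TEK, had 0.469 FPKM in DSP and 1.15 FPKM in TP, against 0.812 FPKM in LL and 0.487 FPKM in YY, and the types overlapped. PTPRB, the phosphatase that switches TEK off at cell contacts, had 5.81 FPKM in DSP and 6.86 FPKM in TP, against 4.58 FPKM in LL and 2.33 FPKM in YY. TEK, TIE1 and these 3 genes were put together after their values were seen, so how many of them did not overlap is no result. None passed the test between types, with differences on the log2(FPKM + 1) scale of 0.91 for ANGPT1 (SE 0.41, limma adjusted p = 1) and 0.76 for PTPRB (SE 0.47); ANGPT2 averaged under 1 FPKM and was not tested.

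VWF departed from the other genes. VWF (ENSSSCG00000000712, chromosome 5, 67005340 to 67078256), the clotting factor that endothelial cells keep in storage granules, had 18.3 FPKM in DSP and 13.2 FPKM in TP, against 22.7 FPKM in LL and 2.43 FPKM in YY. LL was the highest library and YY the lowest, 9.33-fold apart, where the other 8 genes ranged between 2.60-fold and 3.58-fold from highest to lowest. VWF relative to PECAM1 was 0.580 in DSP and 0.212 in TP, against 0.627 in LL and 0.102 in YY. As a share of the summed set, VWF made up 20.5% in DSP and 20.7% in LL, against 8.76% in TP and 4.37% in YY, following the same pairs of libraries as the share of short entries.

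The VWF entry carries that name in the file, while the reference table names its ID ANO2, which is the neighbouring gene in assembly Sscrofa11.1. Whether its reads stand for VWF alone was not tested. VWF is also made by megakaryocytes, and of their markers 4 of 6 were matched. Summed, these were 1.12 FPKM in DSP and 1.93 in TP, against 1.69 in LL and 0.768 in YY. PF4 and PPBP, chemokines of platelets, were under 0.05 FPKM or listed at 0 in every library, ITGA2B, a platelet integrin whose entry the reference table names GPATCH8, lay between 0.273 FPKM in LL and 0.412 FPKM in YY, and ITGB3, its partner, which endothelial cells also make, lay between 0.320 FPKM in YY and 1.58 FPKM in TP.

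**Figure D2:**
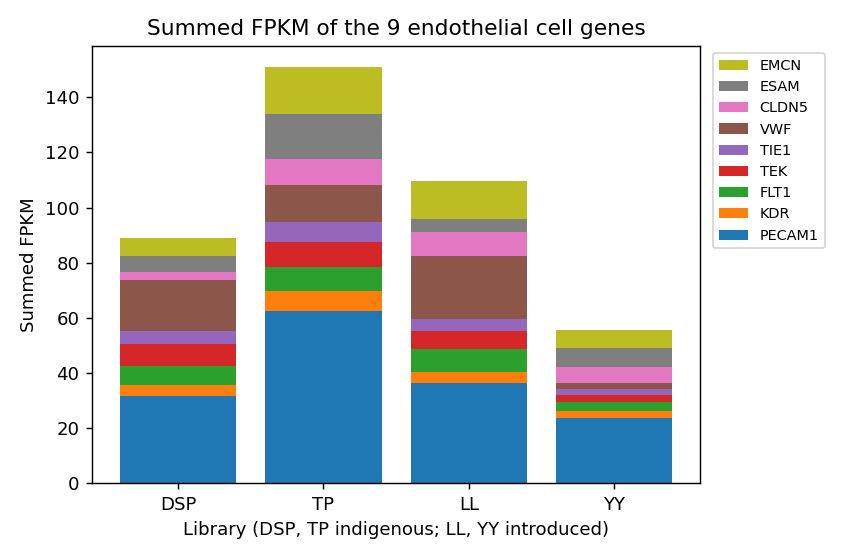
Summed FPKM (y axis) of the 9 endothelial cell genes in each library (x axis), with 1 coloured segment per gene. The bars reach 89.1 in DSP and 151 in TP, against 110 in LL and 55.7 in YY, and the VWF segment is a larger share of the bar in DSP and LL than in TP and YY.

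The comparison between indigenous and introduced pigs asked whether genes of the muscle differ with the origin of the breed. On the log2(FPKM + 1) scale, 8 of the 9 endothelial genes had a difference above 0, indigenous minus introduced, and none passed limma at an adjusted p under 0.05. Over all 11652 genes tested, 47.6% had a difference above 0, and 0 genes (0%) passed, with 130 genes, but none of the 9, at an unadjusted p under 0.05. The median difference of the 9 genes was 0.64, beside −0.02 for all genes tested. VWF had the largest difference, 0.88 (SE 0.90, 95% interval −1.27 to 3.02), followed by TEK with 0.85 (SE 0.52, interval −0.40 to 2.09) and TIE1 with 0.78 (SE 0.50, interval −0.40 to 1.97). That rank held on the log2 scale only. As a ratio of mean FPKM, indigenous over introduced, VWF stood at 1.25, below TEK at 1.84 and TIE1 at 1.88. ESAM, KDR, PECAM1 and FLT1 had differences of 0.67, 0.64, 0.58 and 0.50, EMCN had 0.18 and CLDN5 −0.33 (SE 0.60). Every interval held 0 (limma adjusted p = 1 for each gene), and every interval reached past 1, so a 2-fold difference lay within each of them.

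Single libraries carried much of this direction. The median of the 9 genes was 0.28 without TP and 0.29 without YY, against 0.92 without DSP and 0.95 without LL. Genes with a difference above 0 numbered 6 without TP, 5 without YY, 9 without DSP and 8 without LL. Without YY the direction of FLT1, VWF and EMCN turned, VWF to −0.52. The higher means of FLT1 and VWF in the indigenous type thus rested on that library. EMCN also turned without TP, to −0.42, so its direction rested on either library. Per the authors' deposited table, the false discovery rate was 1 for all 9 genes and their fold changes lay between 0.856 for CLDN5 and 1.88 for ESAM and TIE1. By the authors' values, 605 of all 18208 genes (3.32%) had a false discovery rate under 0.05. The limma fit here was a separate test over the 11652 genes past the filter, of which none passed, so these counts are not alike.

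**Figure D3:**
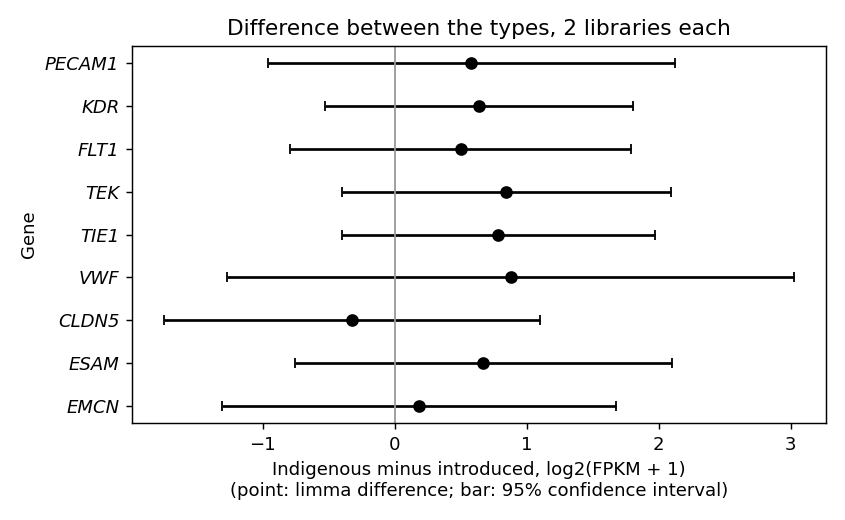
Difference in log2(FPKM + 1), indigenous minus introduced (x axis), for each endothelial cell gene (y axis), with the 95% confidence interval of the limma fit on 2 libraries per type. The points of 8 genes lie right of 0 and that of CLDN5 left of it, and all 9 intervals hold 0.

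Between single breeds no test was possible, and differences are given with the share of all genes that were as far apart. TP minus YY was the widest pair, with a median of 1.31 over the 9 genes and −0.22 over all genes tested. Of the 9 genes, 8 were at least 2-fold higher in TP than in YY on the log2(FPKM + 1) scale, as were 8.03% of 11333 genes, and CLDN5 stood at 0.66. VWF had the largest difference, 2.05, while the receptors KDR, FLT1, TEK and TIE1 lay between 1.23 and 1.45. In DSP minus TP the median was −0.71, and 3 of the 9, CLDN5, ESAM and EMCN, were at least 2-fold higher in TP, as were 7.76% of 11689 genes. That median was −1.12 with libraries set equal over nuclear entries of at least 300 bp. This scaling divided DSP by 1.15 and TP by 0.825, so it lowered DSP against TP for every gene, not these alone. As deposited, TEK, at −0.16, differed least between these indigenous breeds, and VWF, at 0.44, was the only gene higher in DSP.

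In LL minus YY the median was 0.85, and FLT1, TEK and VWF, 3 of the 9, were at least 2-fold higher in LL, as were 13.4% of 11412 genes. With libraries set equal over those nuclear entries the median was 1.28. There LL was divided by 0.811 and YY by 1.21, which raised LL against YY for every gene. As deposited, VWF stood at 2.79 and ESAM, at −0.48, was the only gene lower in LL. In DSP minus LL the median was −0.19, with differences within 0.30 for 7 genes. It was −0.68 over the nuclear entries, where the summed set was 77.5 in DSP and 135 in LL. How near these libraries were thus depended on the scaling, which divided DSP by 1.15 and LL by 0.811 for every gene. As deposited, CLDN5, at −1.31, was the 1 gene at least 2-fold higher in LL, as were 2.75% of 11615 genes. EMCN stood at −0.89. These pairs share libraries and are not independent of each other.

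The level of YY against the other libraries varied with the span of the deposited entry, which need not be the length of the gene or its transcript. Over all genes tested, YY minus the mean of the other 3 libraries had a median of 0.19 for the 3797 entries under 10 kb, 0.07 for 10 to 30 kb, −0.12 for 30 to 100 kb and −0.21 for the 1389 entries over 100 kb. YY was the lowest library for 19.5% of genes in the first class and 36.4% in the last. Among the endothelial genes, CLDN5 and ESAM, with entries under 10 kb, stood at −0.17 and −0.13 in YY, but EMCN, also under 10 kb, stood at −0.75. The 6 genes with longer entries, PECAM1, KDR, TIE1, VWF, FLT1 and TEK, lay between −0.78 and −2.44. Less the median of their own span class, those 6 lay between −0.66 for PECAM1 and −2.32 for VWF. In TP, long entries were lower than short ones over all genes, with −0.08 under 10 kb and −0.23 over 100 kb, and the endothelial genes lay between 0.29 for VWF and 1.37 for ESAM, above the median of their class in every case. The part that transcript length or RNA quality has in the low YY values was not tested.

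**Figure D4:**
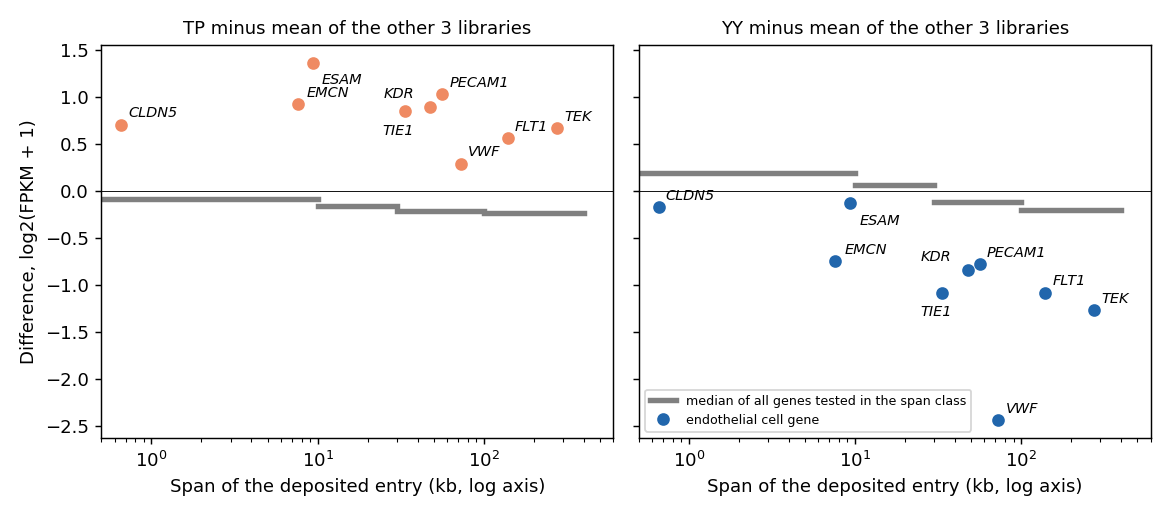
Span of the deposited entry (x axis, log) against the difference of TP (left) and YY (right) from the mean of the other 3 libraries, in log2(FPKM + 1) (y axis). Points are the 9 endothelial cell genes and grey lines the median of all genes tested in 4 span classes; all 9 points lie above the lines in TP and below them in YY.

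Other genes of endothelial cells were read from a longer list, in which 20 of 22 were matched and 19 passed the filter. Of these, 18 had a difference above 0 between indigenous and introduced pigs, with a median of 0.60, and none passed limma after adjustment. TP was the highest library for 15 of the 19 and YY the lowest for 12. ENG, a co-receptor for BMP and TGF-beta ligands, had 19.7 FPKM in DSP and 25.5 FPKM in TP, against 13.3 FPKM in LL and 10.3 FPKM in YY. CALCRL, the adrenomedullin receptor, had 3.36 FPKM in DSP and 6.40 FPKM in TP, against 2.08 FPKM in LL and 1.13 FPKM in YY. It had the largest difference of the list, 1.15 (SE 0.48, limma adjusted p = 1).

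RAMP2, which pairs with CALCRL at the cell surface, had another order, with 12.1 FPKM in DSP and 42.9 FPKM in TP, against 10.7 FPKM in LL and 27.5 FPKM in YY. For RAMP2 the split ran between TP and YY on one side and DSP and LL on the other, and its entry spans 2223 bp. Both indigenous libraries lay above both introduced ones for 9 of the 19, namely ENG, ROBO4, SOX7, ICAM2, NOS3, S1PR1, ACVRL1, CALCRL and PTPRB, beside 9.47% of all genes. With libraries set equal over nuclear entries of at least 300 bp this held for 3 of the 19, ENG, ICAM2 and CALCRL, beside 6.92% of all genes. MMRN2, a matrix protein of endothelial cells, lay lower without overlap as deposited, but not under either scaling by a common sum, at 3.95 FPKM in DSP and 3.81 FPKM in TP, against 4.38 FPKM in LL and 4.08 FPKM in YY. The ID of that entry is named SNCG in the reference table. Without TP, 12 of 18 genes of this list were above 0 with a median of 0.13. The direction of its median held, while the size, like that for the 9 genes, depended on TP.

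Capillary genes were matched for 3 of 6. CAV1, the coat protein of caveolae, had 78.4 FPKM in DSP and 100.1 FPKM in TP, against 57.0 FPKM in LL and 36.7 FPKM in YY, and did not overlap between the types (difference 0.94, SE 0.65, limma adjusted p = 1). Set equal over nuclear entries, CAV1 was 68.2 in DSP and 121 in TP, against 70.2 in LL and 30.2 in YY, so the types overlapped. RGCC, a cell cycle regulator, had 9.40 FPKM in DSP and 23.7 FPKM in TP, against 12.7 FPKM in LL and 16.7 FPKM in YY. CA4, a carbonic anhydrase on the capillary surface, had 1.91 FPKM in DSP and 6.92 FPKM in TP, against 2.57 FPKM in LL and 4.01 FPKM in YY. RGCC and CA4 were lowest in DSP rather than YY, as CLDN5 was. The median of the 3 was 0.18, and −0.54 without TP.

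Arterial and Notch genes had 8 of 12 listed genes past the filter, all with a difference above 0 and a median of 0.46, and none passed the test. The median was 0.12 without TP, with 5 of 7 above 0, and 0.16 without YY. JAG2, read from an entry of 740 bp, had 12.4 FPKM in DSP and 22.7 FPKM in TP, against 11.03 FPKM in LL and 24.1 FPKM in YY. NOTCH4, a Notch receptor of endothelium, had 4.45 FPKM in DSP and 7.495 FPKM in TP, against 5.35 FPKM in LL and 1.82 FPKM in YY, and JAG1, a Notch ligand, had 4.51 and 6.92 FPKM in DSP and TP, against 5.35 and 2.39 FPKM in LL and YY. Both followed the order of KDR and FLT1. HEY1, a target of Notch, was 0.903 FPKM in DSP and 3.60 FPKM in TP, against 0.901 FPKM in LL and 0.790 FPKM in YY.

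Of the 3 venous genes matched, all were above 0 with a median of 0.57, which was 0.26 without YY, and without TP 1 gene was left, at 0.20. NR2F2, the transcription factor of venous identity, was nearly level, at 8.59 FPKM in DSP and 7.55 FPKM in TP, against 7.57 FPKM in LL and 7.15 FPKM in YY. EPHB4 and NRP2, receptors of venous cells, had differences of 0.57 and 0.68 and were lowest in YY, at 0.414 and 0.242 FPKM.

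The ligands of the receptors were also read. VEGFA had 41.4 FPKM in DSP and 66.5 FPKM in TP, against 36.9 FPKM in LL and 39.2 FPKM in YY, so TP was again the highest, but YY was not low. VEGFB, which binds FLT1, had 25.6 FPKM in DSP and 57.4 FPKM in TP, against 15.3 FPKM in LL and 70.2 FPKM in YY, high where FLT1 was highest and also where it was lowest. NRP1, the VEGF co-receptor, had 12.1 FPKM in DSP and 17.0 FPKM in TP, against 13.0 FPKM in LL and 4.01 FPKM in YY, in the order of the receptors. Of the 7 ligands and co-receptors past the filter, 6 had a difference above 0, with a median of 0.46, and none passed the test. Without TP the median was 0.13, with 4 of 6 above 0.

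Many markers of other cells around the fibres, but not all, were highest in TP. Pericyte markers, matched for 7 of 7, summed to 102 FPKM in DSP and 123 FPKM in TP, against 120 FPKM in LL and 52.8 FPKM in YY, and RGS5, their most abundant gene, had 40.0 FPKM in DSP and 68.1 FPKM in TP, against 64.5 FPKM in LL and 22.8 FPKM in YY. ABCC9, a potassium channel subunit of pericytes that muscle fibres also make, was instead highest in DSP, at 36.6 FPKM, against 15.6, 26.2 and 16.6 FPKM in TP, LL and YY. MCAM and PDGFRB, a surface molecule and a growth factor receptor of pericytes, differed by 0.69 and 0.62 between the types. MCAM was highest in TP, at 16.4 FPKM. PDGFRB was highest in LL, with 9.96 FPKM in DSP and 7.60 FPKM in TP, against 12.1 FPKM in LL and 2.05 FPKM in YY. Smooth muscle markers, matched for 5 of 6, summed to 53.2 FPKM in DSP and 212 FPKM in TP, against 63.4 FPKM in LL and 104 FPKM in YY. TAGLN, an actin binding protein, had 10.9 FPKM in DSP and 89.3 FPKM in TP, against 17.2 FPKM in LL and 53.8 FPKM in YY, and ACTA2 and CNN1, smooth muscle actin and calponin, differed by 0.66 and 0.90 between the types. Relative to the endothelial sum, smooth muscle was 0.597 in DSP and 1.40 in TP, against 0.578 in LL and 1.87 in YY, whereas pericytes lay between 0.812 and 1.15. Leukocyte markers, which bear on PECAM1, summed to 11.5 FPKM in DSP and 45.8 FPKM in TP, against 15.0 FPKM in LL and 16.6 FPKM in YY, with 8 of 10 matched and PTPRC, which marks all leukocytes, between 0.551 FPKM in YY and 1.59 FPKM in TP. C1QA and C1QC, complement genes of macrophages, had 15.1 FPKM each in TP and at most 3.84 FPKM elsewhere. CD68, another macrophage gene, went the other way, at 2.88 FPKM in DSP and 2.06 FPKM in TP, against 2.89 FPKM in LL and 3.71 FPKM in YY, and CD14 had a difference of −0.23.

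Red blood cell genes, matched for 4 of 4, summed to 158 FPKM in DSP and 528 FPKM in TP, against 171 FPKM in LL and 80.9 FPKM in YY, the same order as KDR and PECAM1. HBB and HBA, the globin chains, differed by 1.19 and 1.41 between the types. Fibroblast markers, matched for 8 of 8, summed to 716 FPKM in DSP and 907 FPKM in TP, against 560 FPKM in LL and 139 FPKM in YY. COL3A1 and COL1A2, collagen chains, differed by 2.02 and 1.85, and COL1A1, read from an entry of 526 bp, had 355 FPKM in DSP and 234 FPKM in TP, against 240 FPKM in LL and 29.95 FPKM in YY. TP was the highest library for 4 of the 8 fibroblast genes. PDGFRA and FBN1, a growth factor receptor and a matrix protein, were highest in LL, at 3.80 and 10.5 FPKM, and DPT, another matrix protein, lay between 6.45 FPKM in TP and 7.31 FPKM in LL. Adipocyte markers, matched for 3 of 4, summed to 3.53 FPKM in DSP and 22.8 FPKM in TP, against 2.52 FPKM in LL and 2.71 FPKM in YY. PLIN1 and CIDEC, proteins of fat droplets, had 11.5 and 10.8 FPKM in TP and at most 1.80 FPKM elsewhere. Between the types their medians were 0.49 for pericytes, 0.38 for smooth muscle, 0.35 for leukocytes, 1.19 for red blood cells, 1.23 for fibroblasts and 1.34 for adipocytes, and none of their genes passed the test. Single libraries set much of this, but not in every list. Without TP the medians were −0.25 for smooth muscle, −0.32 for leukocytes, 0.21 for pericytes, 0.47 for red blood cells and 0.27 for adipocytes. Fibroblasts stood at 0.91 without TP. Without YY the medians were −0.0076 for pericytes, 0.62 for red blood cells and 0.36 for fibroblasts. Those for leukocytes, smooth muscle and adipocytes were 0.26, 0.70 and 1.36 without YY. The part of these cells, or of blood left in the samples, in the endothelial values was not tested.

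**Figure D5:**
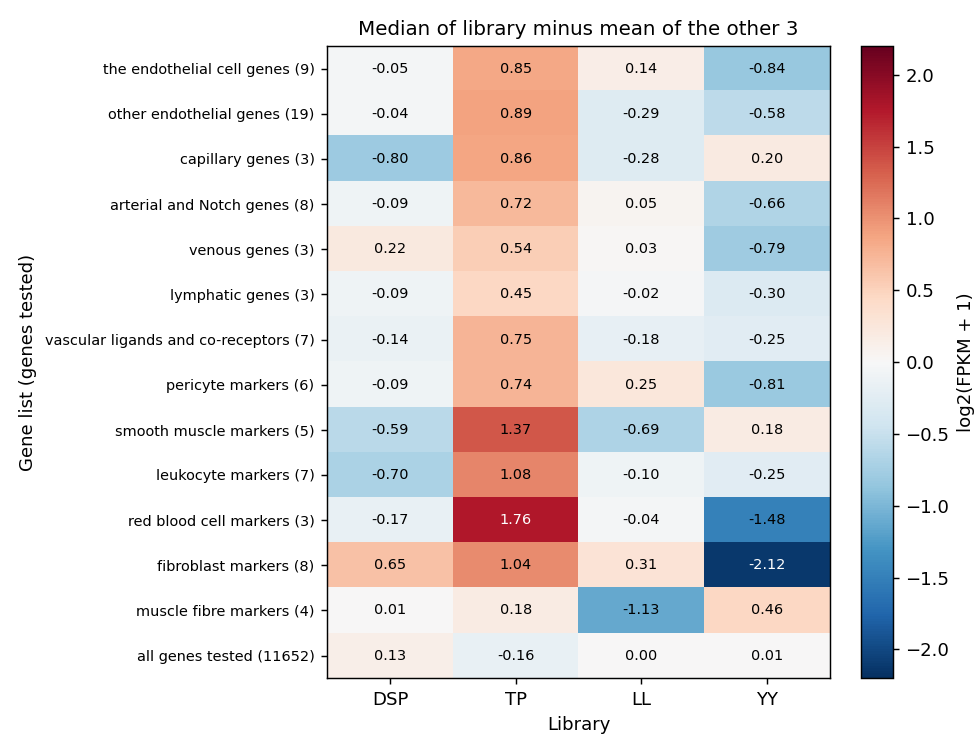
Median, for each list with at least 3 genes tested (rows, number tested in brackets) and each library (columns), of its difference from the mean of the other 3 libraries in log2(FPKM + 1). The 9 endothelial cell genes stand at 0.85 in TP and −0.84 in YY, and all lists but the muscle fibre markers are at 0.45 or more in TP, where all genes tested are at −0.16.

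The genes of the set followed their common profile to different degrees. Centred over the 4 libraries, the mean profile of the 9 genes was −0.08 in DSP and 0.61 in TP, against 0.18 in LL and −0.71 in YY on the log2(FPKM + 1) scale. KDR was nearest to it, at a root mean square distance of 0.11, then TIE1, FLT1 and PECAM1 at 0.15 each and TEK and EMCN at 0.25 each. CLDN5, ESAM and VWF were farther, at 0.51, 0.55 and 0.80, and each gene is itself part of the mean. Outside the set, among 6010 named genes averaging 5 FPKM or more, the nearest over these 4 libraries were ACE, ARHGAP29, NOTCH3, TJP1 and FKBP9, at distances between 0.05 and 0.09. ACE had 5.05 FPKM in DSP and 7.98 FPKM in TP, against 5.76 FPKM in LL and 2.79 FPKM in YY. With 4 libraries many genes share a profile, and 13 others lay as near to it as KDR.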

How the data were processed

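Per the labels' protocols, RNA was extracted with Trizol and libraries were made with the TruSeq kit from total RNA. The submitters' processing notes name TopHat. Which version was run, on which genome build and annotation, and how FPKM were counted is not given in the sources used here. Deposited values are FPKM per breed, computed by the authors, with an FPKM per type, a ratio (fold change) and a p-value with false discovery rate, which are quoted only as the authors'. FPKM hold no counts, so the depth and the counting error are unknown.

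Genes were matched by the name in the file or by the symbol of their Ensembl ID in a reference table, in which 10612 of 18208 IDs were found; 7 of the genes were matched by name and 2 by ID. Deposited starts were read as counting from 0, since 60.2% of 981 short entries then span a multiple of 3, and are printed counting from 1. The types were compared with limma 3.58.1 on log2(FPKM + 1), with a trended prior, over the 11652 genes averaging 1 FPKM or more; Benjamini-Hochberg adjustment covered all of them. The fit was tested on simulated data in which all genes had the same spread, unlike in the real data. It recovered 69% of genes changed by 2 on the log2 scale and 100% of those changed by 4. Of the unchanged genes, 4 were called. A pseudocount of 1 understates differences of low genes. Labels do not say that libraries come from separate animals, so p-values measure only the spread between these libraries. The exact permutation test was not used, since 2 libraries against 2 cannot give a p under 0.333. R 4.3.3, Python 3.11.15, numpy 2.4.6, pandas 2.3.3, scipy 1.17.1 and matplotlib 3.10.9 were used.

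The genes and the 15 other lists were chosen with earlier results of these data known. All 9 genes were named; from each other list, the 2 with the highest mean and the 2 with the largest difference; and the 5 nearest to the mean profile. Genes named outside this rule, and the span classes, were chosen after their values were seen. Alternatives were pseudocounts of 0.1 and 5, no filter or one of 5 FPKM, other scalings, leaving out each library, other limma priors, a term for library pairs (DSP and LL as one, TP and YY as the other), and adding up all entries that carry one symbol. The planned search for promoter motifs was not run.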

Additional observations from a re-analysis of the deposited data

How the results depend on the processing

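None of the 9 endothelial genes passed limma under any of the 15 alternatives, of which the filter of 5 FPKM left out KDR and TIE1, and without LL 1 of them, VWF, had an unadjusted p under 0.05 (0.0135, adjusted p = 0.973). Their median difference stayed above 0, between 0.28 without TP and 0.95 without LL. Leaving out a library gave CLDN5 between −1.02 and 0.37, ESAM between −0.020 and 1.36, EMCN between −0.42 and 0.79, FLT1 between −0.063 and 1.06 and VWF between −0.52 and 2.27. The direction turned for CLDN5 without DSP, for ESAM and EMCN without TP, and for FLT1, VWF and EMCN (−0.28) without YY. Where a type kept a lone library, the spread came from the other type and the lone library was taken to vary as those did. All other differences of single genes, 127 of 133, kept their direction. Over all genes, the count passing was 3 with a pseudocount of 0.1, between 0 and 29 without 1 library, with 29 without YY, and 175 when library pairs were a term, in a fit with 1 residual degree of freedom whose variance came from the trend alone. TP was the highest library for 8 of the 9 genes under each scaling. YY was the lowest for 6 under the median ratio scaling, where EMCN was lowest in DSP, and 7 under the others. Both scalings by a common sum raised every TP value (divisors 0.789 and 0.825) and lowered every YY value (1.18 and 1.21). The shares of all genes given for these orders, 16.2% and 26.1%, hold for the deposited values only. Scalings of the other endothelial genes were added after the data were seen and left between 3 and 8 of the 9 without overlap. There were 8 under the median ratio scaling, beside 8.81% of all genes tested. Leaving out the 50 most abundant genes gave 7, beside 11.19% of all genes. The sum over nuclear entries gave 3, beside 6.92%. Without read counts, the precision of the low values of KDR, TIE1 and ANGPT1 is unknown.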

Other observations

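Lymphatic and activated endothelium were read as separate lists. Lymphatic genes, matched for 6 of 6, summed to 7.04 FPKM in DSP and 15.4 FPKM in TP, against 7.98 FPKM in LL and 6.35 FPKM in YY. CCL21, a chemokine of lymphatic vessels, had 1.007 FPKM in DSP and 7.32 FPKM in TP, against 0.929 FPKM in LL and 2.05 FPKM in YY, and PDPN, a lymphatic surface protein, was nearly level at 3.80 and 3.88 FPKM in DSP and TP, against 3.39 and 2.79 FPKM in LL and YY. LYVE1, a hyaluronan receptor of lymphatic cells and some macrophages, had 1.17 and 1.88 FPKM in DSP and TP, against 1.33 and 0.831 FPKM in LL and YY. The 3 genes past the filter differed between the types by a median of 0.27, and none passed limma. The median was 0.069 without TP, with 2 of 3 above 0, and 0.14 without YY.

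Activation genes, which endothelial cells raise in inflammation, were matched for 4 of 4 and 2 passed the filter, neither of them past the test. SELE, which only activated endothelium makes, was at most 0.117 FPKM in any library. ICAM1, an adhesion molecule for leukocytes, had 3.57 FPKM in both DSP and TP, against 1.62 FPKM in LL and 1.18 FPKM in YY, with no overlap between the types as deposited and under each scaling tried (difference 0.93, SE 0.41, limma adjusted p = 1). The ICAM1 entry spans 125401 bp, and whether its reads stand for ICAM1 alone was not tested. VCAM1, a relative of ICAM1, had 3.62 FPKM in DSP and 6.86 FPKM in TP, against 7.66 FPKM in LL and 3.06 FPKM in YY. The median of both was 0.48, against 0.29 without TP and 0.14 without YY.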
